A study of Mus musculus with 10 samples.

Results

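The 10 genes described here handle cellular iron: the ferritin chains that store it (Fth1, Ftl1), transferrin and its receptor that bring it in (Trf, Tfrc), the divalent metal transporters that move it across endosomal and phagosomal membranes (Slc11a2, Slc11a1), the exporter ferroportin (Slc40a1), the heme-degrading enzyme Hmox1, and the iron regulatory proteins Aco1 and Ireb2. They were taken by name from the 37447 genes of the deposited expression table, and all 10 were found. RNA was sequenced from microglia, the resident macrophages of the central nervous system, of mouse brainstem. The labels give 3 groups, all at 6 weeks of age: laser capture of GFP expressing microglia (LCM_GFP, n = 4, of which 3 female and 1 male), flow sorting of GFP expressing microglia (FACS_GFP, n = 3, of which 2 female and 1 male) and flow sorting of wild-type microglia from strain C57BL/6 (FACS_WT, n = 3, all male). The promoter that drives GFP, the strain of the GFP mice and any pooling of animals are not given in the labels. Sorted cells came from dissociated tissue passed over Percoll and their RNA from TRIzol, whereas captured cells came from sections fixed in paraformaldehyde and their RNA from proteinase K and acid phenol, so capture, fixation and extraction cannot be told apart. Values are FPKM (fragments per kilobase of transcript, scaled to the mapped fragments of the library) as the authors deposited them.

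As background, a cell takes up iron mostly as transferrin bound to the transferrin receptor, frees it in the endosome through Slc11a2, stores the surplus in ferritin shells made of heavy and light chains, and releases it through ferroportin. Macrophages also gain iron from engulfed heme, which Hmox1 opens. In brain, oligodendrocytes are known for making transferrin and microglia for storing iron in ferritin. Aco1 and Ireb2 bind a hairpin, the iron-responsive element, when iron is scarce. Bound at the 5′ end of a message the hairpin holds back translation, and bound at the 3′ end it protects the message from decay.

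The hairpins found in the members by a strict search are shown with the end of the message at which they stand. The search read the sense strand of mouse GENCODE M21 transcripts (GRCm38) for a C, 5 bases, CAGTGN and 5 bases, where both stretches of 5 bases pair. The capitals mark the 6 loop letters.

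Fth1, 5′ UTR: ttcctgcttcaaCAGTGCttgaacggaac
Ftl1, 5′ UTR: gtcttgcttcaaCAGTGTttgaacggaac
Slc40a1, 5′ UTR: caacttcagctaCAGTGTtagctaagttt
Tfrc, 3′ UTR: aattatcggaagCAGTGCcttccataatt
Tfrc, 3′ UTR: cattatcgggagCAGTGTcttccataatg
Tfrc, 3′ UTR: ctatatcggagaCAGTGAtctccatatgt
Tfrc, 3′ UTR: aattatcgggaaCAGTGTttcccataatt

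The heavy and light ferritin chains carried nearly the same hairpin, and the transferrin receptor carried 4. Of 10 members, 4 held a match, against 0.708% of all 21899 protein-coding genes searched. The letters searched were those of the known element of iron genes, so this count describes the members and is no test of them. By region, a match stood in the 5′ UTR of 0.134% of genes and in the 3′ UTR of 0.605%. The other 6 members held no match to these letters, from which nothing follows about binding.

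Facts of the libraries bear on every value below. The files give no read counts, and the steps between low values implied depths, in units of 1e+06 fragments, of roughly 27.5 to 38.3 in the laser-captured, 44.2 to 58.9 in the sorted GFP and 47.8 to 67.5 in the sorted wild-type libraries. The 20 microglial markers summed to 2790 to 6480 FPKM in the 4 libraries from laser capture, against 9750 to 12000 in the sorted GFP and 11400 to 14600 in the sorted wild-type libraries. The 18 oligodendrocyte markers summed to 3140 to 8760 FPKM in the 4 libraries from laser capture, against 22.2 to 26.8 and 25.2 to 33.6 in the sorted GFP and wild-type libraries, where 5 to 8 of the 18 were listed at 0. The 15 neuron markers summed to 1240 to 3000 against 5.1 to 15.6 and 3.94 to 4.94 FPKM, and the 12 astrocyte markers to 934 to 2020 against 31.1 to 34.7 and 23.7 to 27.5 FPKM. The 15 erythroid markers summed to 3670, 40.9, 1820 and 0.497 FPKM in libraries 1 to 4 from laser capture, against 8.31 to 10.3 and 7.15 to 9.66 FPKM in the sorted GFP and wild-type libraries. Libraries 1 and 3 held the embryonic globin Hbb-y at 902 and 439 FPKM, while in libraries 2 and 4 it stood at 0.102 and 0.0666. Against their sex labels, Uty of the Y chromosome reached 15.6 FPKM in library 1 (female) and Kdm5d of the Y chromosome 5.96 FPKM in library 3 (female), and Xist stood at 3.91 FPKM in the sorted GFP library 2 (male). Other such genes stood nearer to the labels. In library 1 Ddx3y, Eif2s3y and Kdm5d stood at 0.198, 2.25 and 3.26 FPKM, beside Xist at 14.0. In library 3 Ddx3y, Eif2s3y and Uty stood at 0, 0 and 0.286 FPKM, beside Xist at 32.8. The sorted GFP library 2 held Ddx3y, Uty, Kdm5d and Eif2s3y at 7.55, 28.5, 23.0 and 56.9 FPKM. Where these measures move with an iron gene, their part in the result was not tested, and in bulk RNA fewer cells of a type and less RNA per cell cannot be told apart.

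**Figure D1:**
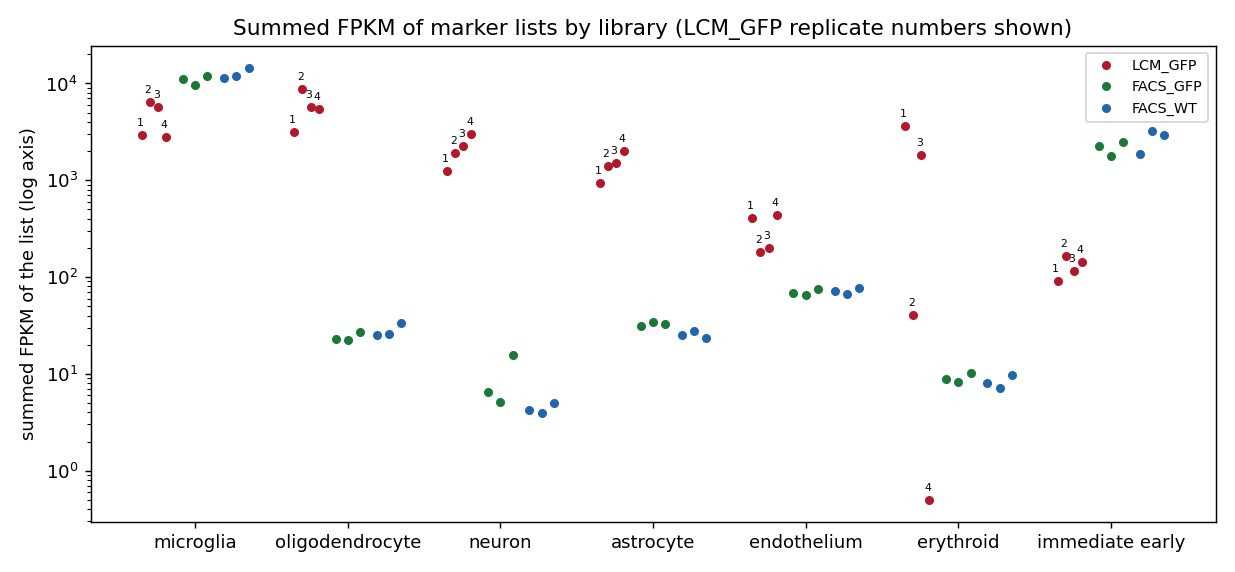
Summed FPKM (log axis) of each marker list, one point per library, with the laser-captured replicate numbers shown. Markers of oligodendrocytes, neurons and astrocytes lie far higher in the 4 laser-captured libraries, microglial and immediate early genes lie lower, and the erythroid sums of the laser-captured libraries run between 0.497 and 3670 FPKM.

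In the sorted microglia the iron genes fell into 2 ranges of level. Ftl1, Slc11a1, Trf and Fth1 averaged 176 to 552 FPKM in the sorted GFP and 226 to 653 FPKM in the sorted wild-type libraries, and Ftl1 was the highest gene of the 10 in both. Its lowest library exceeded the highest library of the gene next in order in both groups. The ranges of Slc11a1, Trf and Fth1 overlapped those of their neighbours in this order. The other 6 averaged 6.54 to 29.7 FPKM in the sorted GFP and 5.75 to 16.8 FPKM in the sorted wild-type libraries, and Tfrc was the lowest. In the laser-captured libraries the order was Trf, Ftl1 and Fth1, at means of 436, 380 and 318 FPKM, with overlapping ranges, and Slc11a1 followed at 74.0 FPKM with a range below that of Fth1. Hmox1 was the lowest there, at a mean of 3.50 FPKM.

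**Figure D2:**
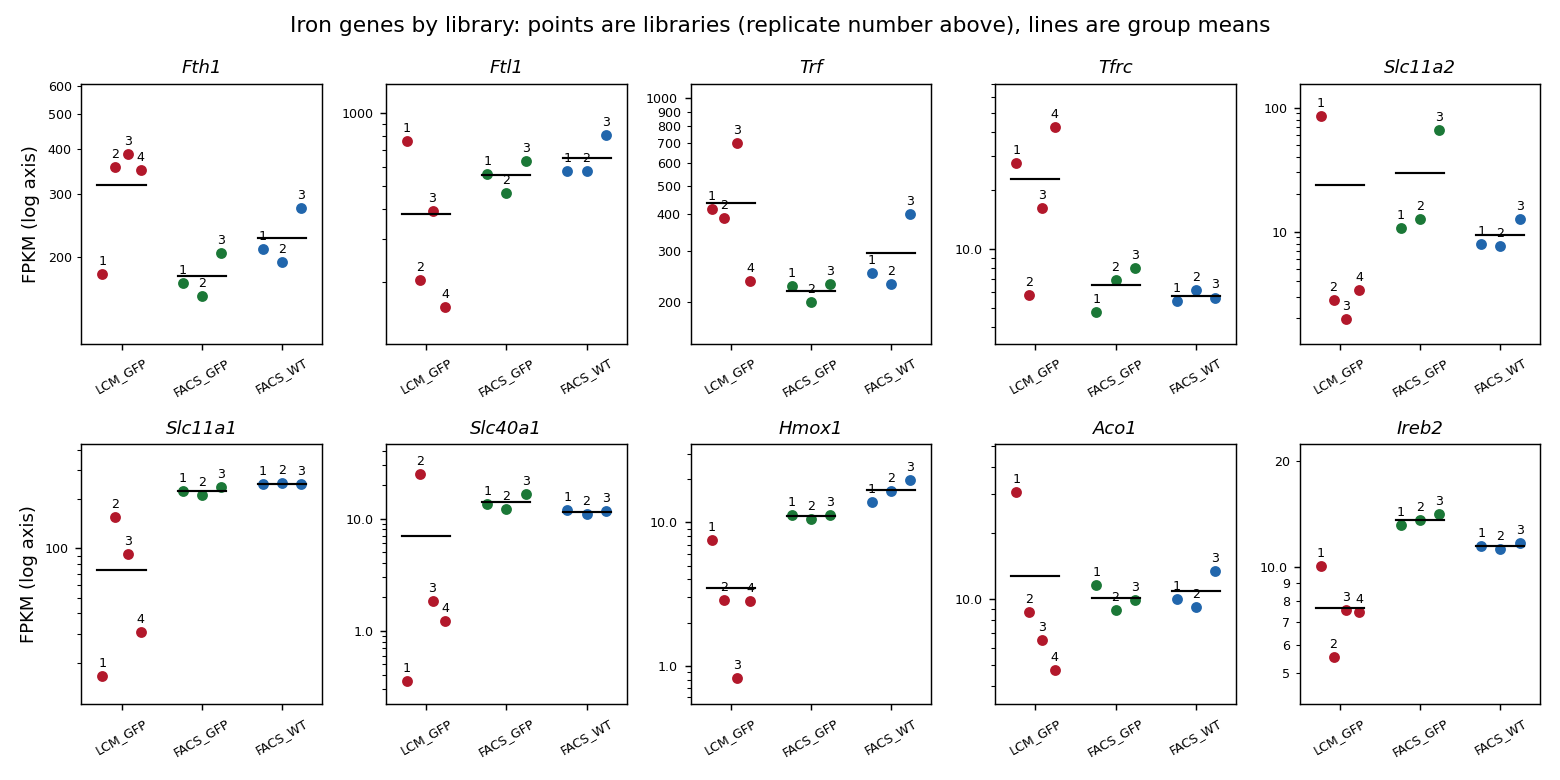
FPKM of the 10 iron genes (log axis, a scale for each gene), one point per library with its replicate number, and the mean of FPKM as a line, for LCM_GFP, FACS_GFP and FACS_WT. The sorted libraries lie close together for most genes, while the laser-captured libraries spread widely, as for Slc40a1 between 0.355 and 24.7 FPKM.

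The heavy ferritin chain, Fth1, which oxidises iron for storage (mm9, chromosome 19, 10057192 to 10059582), stood at 179, 357, 388 and 349 FPKM in libraries 1 to 4 from laser capture, against 169, 156 and 205 FPKM in the sorted GFP and 211, 193 and 274 FPKM in the sorted wild-type libraries. Laser-captured libraries 2, 3 and 4 lay above all sorted libraries, and library 1 lay among them. The light chain, Ftl1, which helps the iron core to form (mm9, chromosome 7, 52713313 to 52715254), stood at 769, 203, 391 and 157 FPKM in the 4 libraries from laser capture, against 561, 466 and 630 FPKM in the sorted GFP and 573, 573 and 813 FPKM in the sorted wild-type libraries. Here libraries 2, 3 and 4 lay below all sorted libraries and library 1 again lay among them. The log2 change on the log2(FPKM + 1) scale, used for all such changes, was 0.80 (SE 0.34, 95% interval 0.02 to 1.58) for Fth1 and −0.81 (SE 0.53, interval −2.02 to 0.41) for Ftl1 in the laser-captured over the sorted GFP libraries. Neither passed limma's test over all genes (adjusted p = 0.105 and 0.27), nor did they over the sorted wild-type libraries (0.45 for Fth1 and −1.04 for Ftl1, limma adjusted p = 0.353 and 0.167). Without the laser-captured library 1 the changes over the sorted GFP libraries were 1.05 for Fth1 (limma adjusted p = 0.00647) and −1.24 for Ftl1 (limma adjusted p = 0.0331). With another library left out, the limma adjusted p reached 0.306 and 0.493. With libraries 2 and 4 only, where embryonic globins were lowest within the group, the changes were 1.01 (limma adjusted p = 0.0147) and −1.61 (limma adjusted p = 0.00576). In this and the following paragraphs on single genes, a laser-captured library named as left out is the one whose loss gave the lowest p. A p picked so adds no support for a change. Both ferritin genes have near-identical copies in the genome, and the authors' treatment of shared reads is not given in the sources used here. Of the copies in the table, Fth-ps2 reached 34.5 FPKM in a laser-captured library, against at most 3.81 and 3.47 FPKM in the sorted GFP and wild-type libraries, and Ftl2 stayed below 0.5 FPKM everywhere.

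The ratio of heavy to light chain, which does not depend on how libraries are scaled, was nearly constant in sorted microglia. Fth1 was 0.300, 0.334 and 0.325 times the FPKM of Ftl1 in the sorted GFP libraries and 0.367, 0.338 and 0.337 times in the sorted wild-type libraries. In the laser-captured libraries 1 to 4 the ratio was 0.233, 1.75, 0.992 and 2.23. Libraries 2, 3 and 4 lay above every sorted library and library 1 below every one. The log2 ratio averaged −0.04 ± 1.46 (SD, n = 4) in the laser-captured libraries, against −1.65 ± 0.08 (SD, n = 3) in the sorted GFP and −1.53 ± 0.07 (SD, n = 3) in the sorted wild-type libraries. The difference of 1.61 from the sorted GFP libraries did not pass an exact two-sided permutation test (p = 0.229, where 0.0571 is the smallest p that 4 against 3 libraries allow, and 0.45 adjusted over the 6 ratio comparisons made).

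**Figure D3:**
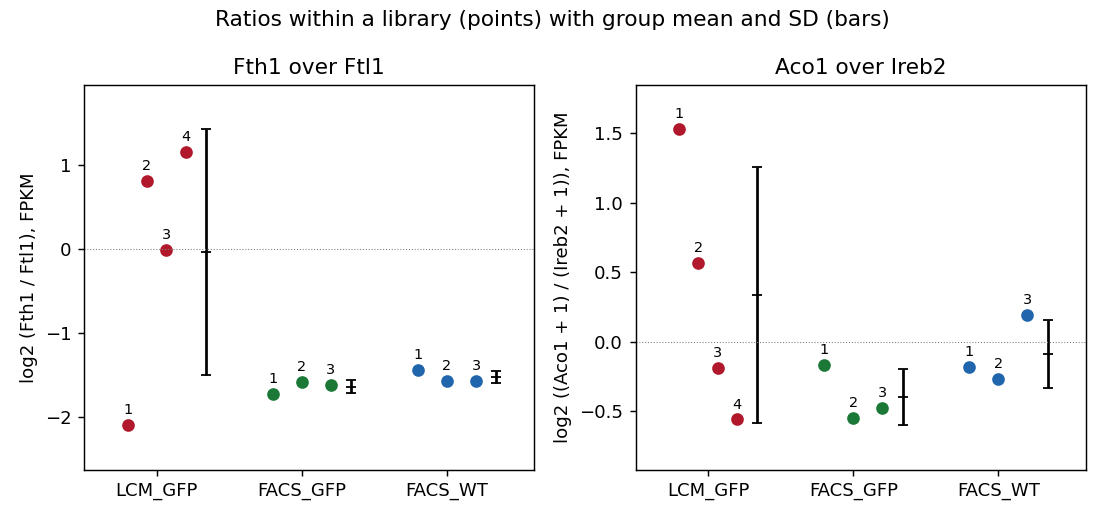
Log2 ratio of Fth1 to Ftl1 and of Aco1 to Ireb2 within each library (points, with replicate numbers) and the group mean with SD (bars). The ferritin ratio lies between −1.73 and −1.44 in all 6 sorted libraries and between −2.10 and 1.16 in the laser-captured libraries.

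On the uptake side, Trf, transferrin (mm9, chromosome 9, 103106330 to 103132774), stood at 417, 387, 703 and 237 FPKM in the 4 libraries from laser capture, against 227, 199 and 230 FPKM in the sorted GFP and 252, 230 and 401 FPKM in the sorted wild-type libraries. All 4 laser-captured libraries lay above the sorted GFP libraries, library 4 barely so, while the sorted wild-type libraries 1 and 3 lay within the laser-captured range. The change against the sorted GFP libraries was 0.89 (SE 0.37, interval 0.03 to 1.75, limma adjusted p = 0.101) and against the sorted wild-type libraries 0.50 (SE 0.41, interval −0.43 to 1.43, limma adjusted p = 0.37). Without the laser-captured library 4 the first was 1.15 (limma adjusted p = 0.032), and with another library left out the limma adjusted p reached 0.269. Oligodendrocyte marker sums were 3140, 8760, 5740 and 5410 FPKM in laser-captured libraries 1 to 4, against at most 26.8 and 33.6 FPKM in the sorted GFP and wild-type libraries. Trf did not follow the order of these sums among the laser-captured libraries, and it stood at 199 FPKM or higher in every sorted library. The part of oligodendrocyte RNA in the Trf values was not tested.

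Tfrc, the transferrin receptor with 4 hairpins (mm9, chromosome 16, 32609005 to 32632880), stood at 27.7, 5.81, 16.3 and 42.2 FPKM in the 4 libraries from laser capture, against 4.75, 6.91 and 7.97 FPKM in the sorted GFP and 5.41, 6.18 and 5.64 FPKM in the sorted wild-type libraries. Libraries 1, 3 and 4 lay above every sorted library and library 2 lay within their range. The change was 1.40 (SE 0.66, interval −0.12 to 2.92, limma adjusted p = 0.137) over the sorted GFP libraries and 1.54 (SE 0.65, interval 0.04 to 3.03, limma adjusted p = 0.105) over the sorted wild-type libraries. Without the laser-captured library 2 they were 1.91 (limma adjusted p = 0.0228) and 2.04 (limma adjusted p = 0.0162). The limma adjusted p reached 0.347 and 0.257 with another library left out. The 12 endothelial markers summed to 411, 180, 198 and 435 FPKM in laser-captured libraries 1 to 4, in the same order as Tfrc. The sorted GFP group had 65.3 to 75.2 FPKM and the sorted wild-type group 66.3 to 77.8 FPKM. Slc2a1 (174, 42.6, 94.1 and 216 FPKM) and Slco1a4 (103, 40.4, 23.0 and 134 FPKM) were the highest of the list in each laser-captured library. Not every marker followed the order of Tfrc: Kdr was highest in library 2 (31.6 FPKM) and Cldn5 lowest in library 4 (2.90 FPKM). The erythroid sums given above did not follow the order of Tfrc either. The part of either in the Tfrc values was not tested.

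Slc11a2, which carries iron out of the endosome (mm9, chromosome 15, 100218328 to 100255503), stood at 86.1, 2.81, 1.97 and 3.37 FPKM in the 4 libraries from laser capture, against 10.6, 12.6 and 65.8 FPKM in the sorted GFP and 7.93, 7.62 and 12.7 FPKM in the sorted wild-type libraries. The sorted GFP library 3 stood far above the other sorted libraries. Libraries 2, 3 and 4 of the laser-captured group lay below all sorted libraries and library 1 above all. The change of −1.44 over the sorted GFP libraries carried an interval of −4.31 to 1.44 (limma adjusted p = 0.402), and without the laser-captured library 1 it was −2.58 (limma adjusted p = 0.0284). Over the sorted wild-type libraries the change was −0.33 (limma adjusted p = 0.847), and without the laser-captured library 1 it was −1.47 (limma adjusted p = 0.0234). Other libraries left out brought the limma adjusted p to as much as 0.78 over the sorted GFP and 0.987 over the sorted wild-type libraries.

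Slc11a1, the divalent metal transporter of the macrophage phagosome (mm9, chromosome 1, 74421776 to 74432636), was the iron transporter most abundant in sorted microglia and was lower in the laser-captured libraries. It stood at 16.6, 156, 92.6 and 31.0 FPKM in libraries 1 to 4 from laser capture, against 223, 213 and 239 FPKM in the sorted GFP and 246, 252 and 247 FPKM in the sorted wild-type libraries. The groups did not overlap in either comparison. The change was −2.22 over the sorted wild-type libraries (SE 0.71, interval −3.85 to −0.58, limma adjusted p = 0.0461) and passed the test. Over the sorted GFP libraries it was −2.07 (SE 0.72, interval −3.72 to −0.42, limma adjusted p = 0.0575) and missed it. The call against wild type ended under 13 of 18 alternatives, among them median ratio scaling (−1.68, limma adjusted p = 0.116) and the loss of any 1 sorted wild-type library. The summed microglial markers stood lower in these same libraries, and after an offset that sets the median of the microglial markers equal in all libraries the change was −0.62 (limma adjusted p = 0.407). That offset moved all genes upward, from a median change of −0.59 to 1.01 over the sorted wild-type libraries. The part of microglial RNA in the Slc11a1 values was not tested.

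Slc40a1, ferroportin, the known exporter of iron from animal cells (mm9, chromosome 1, 45964914 to 45982439), stood at 0.355, 24.7, 1.83 and 1.21 FPKM in the 4 libraries from laser capture, against 13.5, 12.1 and 16.5 FPKM in the sorted GFP and 11.96, 10.99 and 11.7 FPKM in the sorted wild-type libraries. Libraries 1, 3 and 4 lay below and library 2 above every sorted library. The change was −1.96 over the sorted GFP libraries (SE 0.96, interval −4.16 to 0.25, limma adjusted p = 0.151) and −1.71 over the sorted wild-type libraries (SE 0.95, interval −3.89 to 0.48, limma adjusted p = 0.2). Without the laser-captured library 2 it was −2.87 (limma adjusted p = 0.0035) over the sorted GFP libraries and −2.62 (limma adjusted p = 0.0046) over the sorted wild-type libraries. The loss of another library raised the limma adjusted p to as much as 0.316 and 0.352.

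Hmox1, the inducible heme oxygenase that frees iron from heme (mm9, chromosome 8, 77617489 to 77624495), was lower after laser capture than in the wild-type sort. It stood at 7.53, 2.85, 0.819 and 2.82 FPKM in libraries 1 to 4 from laser capture, against 11.2, 10.6 and 11.3 FPKM in the sorted GFP and 13.8, 16.6 and 19.9 FPKM in the sorted wild-type libraries. No 2 of the 3 groups overlapped. The change over the sorted wild-type libraries was −2.18 (SE 0.58, interval −3.52 to −0.84, limma adjusted p = 0.0244). It lost its call under 7 of 18 alternatives, among them median ratio scaling (−1.71, limma adjusted p = 0.0793), quantile normalization, the microglial offset and the loss of any 1 sorted wild-type library. Over the sorted GFP libraries it was −1.63 (SE 0.57, interval −2.94 to −0.31, limma adjusted p = 0.06), and without the laser-captured library 1 it was −2.01 (limma adjusted p = 0.00979). There the limma adjusted p reached 0.206 with another library left out. Of 18 immediate early genes, 15 were called lower over the sorted GFP and 15 over the sorted wild-type libraries. Over all genes tested, the shares called lower were 19.6% and 19.1%. Fos was among those called, while Nr4a1, Ier3 and Klf4 were not called. The part of the immediate early genes in the Hmox1 result was not tested. The 18 summed to 91.7 to 165 FPKM in the 4 libraries from laser capture, against 1770 to 2510 in the sorted GFP and 1850 to 3220 FPKM in the sorted wild-type libraries.

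Aco1 and Ireb2 encode the proteins that bind the hairpins. Aco1, which is a cytosolic aconitase when it carries an iron-sulfur cluster (mm9, chromosome 4, 40090113 to 40146042), stood at 30.8, 8.74, 6.49 and 4.72 FPKM in the 4 libraries from laser capture, against 11.6, 8.93 and 9.87 FPKM in the sorted GFP and 10.0, 9.14 and 13.5 FPKM in the sorted wild-type libraries. Library 1 lay above and the other 3 below every sorted library, and the change over the sorted GFP libraries was −0.04 (SE 0.63, interval −1.50 to 1.41, limma adjusted p = 0.963). Ireb2, which is degraded when iron is plentiful (mm9, chromosome 9, 54711561 to 54760341), stood at 10.0, 5.57, 7.56 and 7.46 FPKM in the 4 libraries from laser capture, against 13.1, 13.6 and 14.2 FPKM in the sorted GFP and 11.5, 11.2 and 11.7 FPKM in the sorted wild-type libraries. All laser-captured libraries lay below all sorted libraries, and Ireb2 had the narrowest spread of the 10 genes among them, 7.65 ± 1.83 FPKM (SD, n = 4). Its change over the sorted GFP libraries was −0.78 (SE 0.40, interval −1.70 to 0.15, limma adjusted p = 0.169), beside a median of −0.60 over all genes tested, and over the sorted wild-type libraries it was −0.55 (limma adjusted p = 0.342). The log2 ratio of Aco1 to Ireb2, with 1 FPKM added to each, was 0.33 ± 0.92 (SD, n = 4) in the laser-captured libraries, against −0.40 ± 0.21 (SD, n = 3) in the sorted GFP and −0.09 ± 0.24 (SD, n = 3) in the sorted wild-type libraries, and neither difference passed an exact permutation test (p = 0.4 and 0.571).

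The comparison of laser-captured with sorted GFP microglia asks how the isolation methods differ, the question in the series' design. None of the 10 iron genes was called by limma, where 32.1% of 13403 genes tested were called, 12.5% higher and 19.6% lower. All 10 passed the filter on low values, and 4 had an unadjusted p under 0.05 (Fth1, Trf, Slc11a1 and Hmox1), against 44.9% of all genes tested. The groups did not overlap for 4 of the 10 (Trf, Slc11a1, Hmox1 and Ireb2), against 48.2% of all genes tested. The median log2 change of the 10 was −0.80 against −0.60 over all genes, with 3 above 0 (Fth1, Trf and Tfrc) and 7 below. The median over all genes was −0.14 under median ratio scaling, −0.40 under quantile normalization and 0.91 under the microglial offset. Fth1, Trf and Tfrc were named for a change above 0, so their place above the medians below 0 adds no support for a rise. Under median ratio scaling Fth1 and Trf were called higher (1.35 and 1.44, limma adjusted p = 0.0162 and 0.0286). Against the sorted wild-type libraries, isolation, GFP expression and the balance of the sexes differ together, and labelled sex was not a term in these fits. There Slc11a1 and Hmox1 were called lower and none of the 10 higher, while 31.4% of 13415 genes were called, 12.3% higher and 19.1% lower. The groups did not overlap for 3 of 10 (Slc11a1, Hmox1 and Ireb2), against 46.5% of all genes. Both comparisons share the laser-captured libraries.

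**Figure D4:**
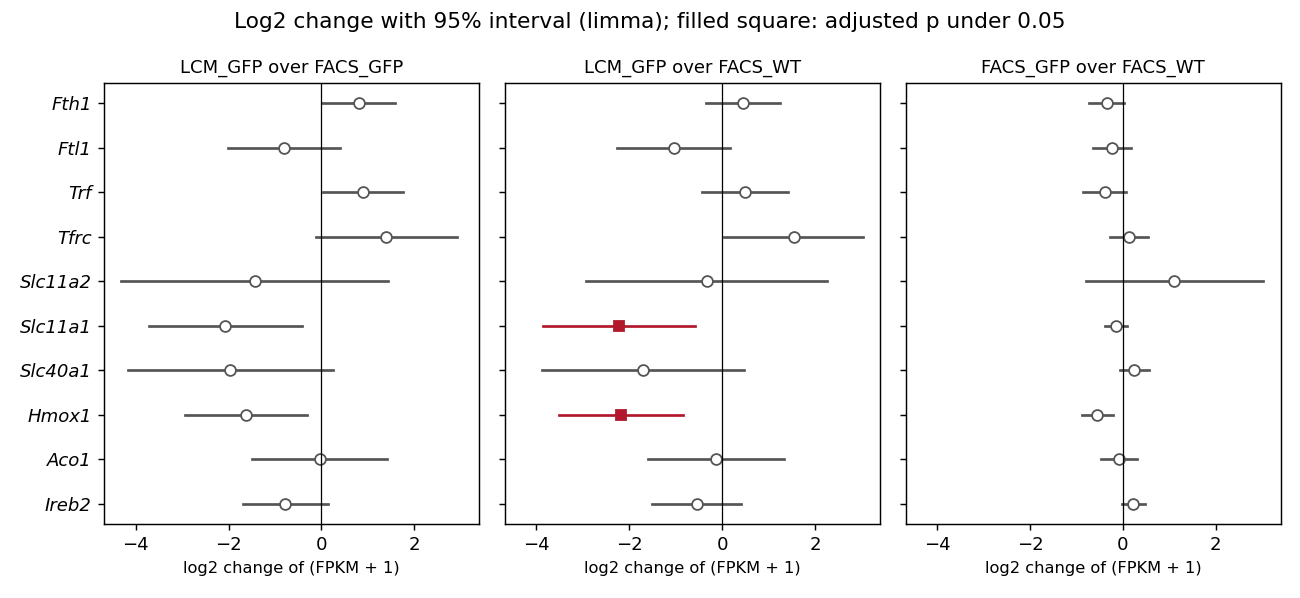
Log2 change of FPKM + 1 with its 95% interval from limma for the 10 iron genes in the 3 comparisons. The filled squares are the calls at an adjusted p under 0.05, Slc11a1 and Hmox1 in the laser-captured over the sorted wild-type libraries, and intervals are far narrower between the sorted groups except for Slc11a2.

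In the authors' deposited table of group comparisons none of the 10 genes was marked significant. The q-values of the 10 in the authors' deposited table ran between 0.674 and 1 for laser-captured against sorted GFP microglia and between 0.736 and 1 for laser-captured against sorted wild-type microglia. That table held Trf only as a locus joined with Srprb and Gm20425.

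For the 10 genes, the highest and lowest values within the laser-captured group were not shared evenly by its libraries. Library 1 held the highest or the lowest value of the group for 8 of the 10 genes, highest for Ftl1, Slc11a2, Hmox1, Aco1 and Ireb2 and lowest for Fth1, Slc40a1 and Slc11a1. Libraries 2, 3 and 4 each held 4 such values. No share over all genes is given beside these counts, so they cannot be read as a trait of the iron genes. Library 1 also had the highest erythroid sum, and its 10 most abundant genes took 34.4% of all FPKM, against 6.67% to 24.5% in the other 9 libraries. Library 2, which had the microglial sum nearest to the sorted libraries (6480 FPKM), had the highest Slc11a1 and Slc40a1 and the lowest Tfrc of its group, nearest to the sorted values for Slc11a1 and Tfrc.

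Of 52 other genes of iron handling listed beside the members, 51 were matched in the table and 30 passed the filter in the comparison of laser-captured with sorted GFP microglia, where 2 were higher and 4 lower. These are 6 of 30, beside the 32.1% called over all genes, with a median log2 change of −0.96. The higher genes were both membrane metal oxidoreductases. Steap2, a metalloreductase, stood at 8.94, 3.69, 3.46 and 33.7 FPKM after laser capture, whereas each of the 3 sorted GFP libraries had it listed at 0 (log2 change 3.20, limma adjusted p = 0.0135). Heph, the ferroxidase hephaestin, which falls below the level set for naming and was named after its values were seen, stood at 5.79, 1.35, 1.65 and 2.76 FPKM after laser capture and averaged 0.00133 FPKM in the sorted GFP group (log2 change 1.83, limma adjusted p = 0.0102). Neither reached 1 FPKM in a sorted library, so both entered the test through laser capture alone and had to differ.

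The 4 lower genes serve heme synthesis and export, mitochondrial iron import and vesicle traffic. Alas1, the enzyme that begins heme synthesis, stood at 2.47, 5.15, 2.14 and 12.9 FPKM in the 4 libraries from laser capture, against 26.5, 24.4 and 34.6 FPKM in the sorted GFP group (log2 change −2.40, SE 0.60, limma adjusted p = 0.0188). Flvcr1, described as a heme exporter, averaged 1.33 against 5.67 FPKM (−1.58, limma adjusted p = 0.0315). Slc25a28, a mitochondrial iron importer, stood at 7.95, 9.88, 15.4 and 16.8 FPKM in the 4 libraries from laser capture, against 37.9, 36.9 and 37.4 FPKM in the sorted GFP group (−1.56, limma adjusted p = 0.0221). Exoc6, an exocyst subunit needed for the transferrin cycle in mouse red cell precursors, averaged 15.4 against 69.1 FPKM (−2.46, limma adjusted p = 0.0374). These 4 genes did not overlap between the groups. All 6 calls ended without any 1 of the sorted GFP libraries, where 0 of these genes was called and the calls over all genes fell to 1042 to 1087, against 4305 with all libraries.

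Against the sorted wild-type libraries 2 of 31 tested pathway genes were higher and 6 lower, beside the 12.3% and 19.1% of all genes. Steap2 and Heph were higher, and Alas1, Flvcr1, Slc25a28 and Exoc6 were lower, beside Lrp1, a receptor that takes up hemopexin-bound heme (91.6 against 235 FPKM, −1.50, limma adjusted p = 0.0441) and Pcbp1, a cytosolic iron chaperone that loads ferritin (32.0 against 73.6 FPKM, −1.16, limma adjusted p = 0.0376). Without any 1 sorted wild-type library, 0 was called. Hamp, hepcidin, the liver hormone that acts on ferroportin, reached at most 0.349 FPKM in any library, and was named after its values were seen. Hfe, the hemochromatosis protein, also named after its values were seen, stood at 0.118, 23.6, 27.3 and 0.572 FPKM after laser capture, against 55.0 to 67.8 FPKM in the sorted GFP and 50.0 to 79.0 FPKM in the sorted wild-type libraries, and was not called (limma adjusted p = 0.0637 and 0.0678).

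**Figure D5:**
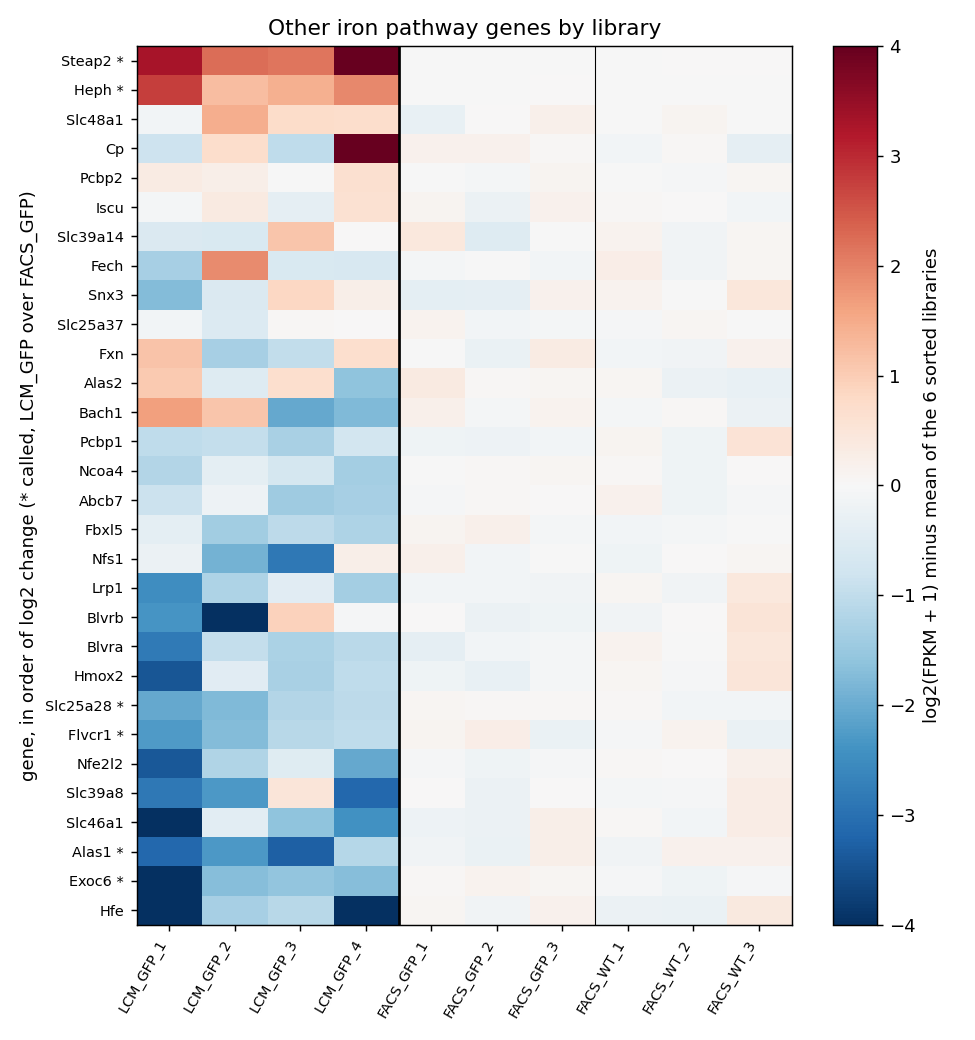
Log2(FPKM + 1) of the 30 other iron pathway genes tested, per library, relative to the mean of the 6 sorted libraries, with genes in order of their log2 change in LCM_GFP over FACS_GFP and asterisks for the 6 called. Sorted libraries are nearly uniform, and 23 of the 30 genes have a change below 0.

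Sorted GFP and sorted wild-type microglia differ in GFP expression and in the balance of the sexes, since 1 of 3 GFP libraries and all 3 wild-type libraries are labelled male. Whether they differ in strain is not known, since the labels do not give the strain of the GFP mice. No iron gene was called by limma, where 0.11% of 11814 genes were called, 0.0339% higher and 0.0762% lower, and 1 had an unadjusted p under 0.05, against 13.1% of all genes tested. The gene was Hmox1, with a change of −0.55 in the GFP over the wild-type libraries (SE 0.15, interval −0.88 to −0.22, limma adjusted p = 0.253). With labelled sex as a term, an alternative chosen after seeing the data, it was −0.60 (limma adjusted p = 0.675), and again none of the 10 was called by limma. The change of Slc11a2 was 0.42 in that fit, against 1.11 without the term, and that of Ftl1 −0.47 against −0.23. The groups did not overlap for 5 of the 10 (Trf, Slc11a1, Slc40a1, Hmox1 and Ireb2), against 20.8% of all genes tested, with changes between −0.55 and 0.25. For the ferritin chains the intervals were −0.72 to 0.03 for Fth1 and −0.65 to 0.18 for Ftl1, and for Slc11a2 the interval was −0.80 to 3.02. The ferritin ratio differed by −0.12 on the log2 scale without overlap (exact permutation p = 0.1, the smallest that 3 against 3 libraries allow). None of 29 tested pathway genes was called by limma, 3 had an unadjusted p under 0.05 beside the 13.1% of all genes, and q-values of the members in the authors' deposited table ran between 0.182 and 1 for this pair.

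By Pearson correlation of log2(FPKM + 1) over the 10 libraries, which fall into separate groups, the gene of most like pattern to Slc11a1 was Il21r (r = 0.995), followed by Sfpi1, the macrophage transcription factor PU.1 (r = 0.994). For Slc40a1 it was Taf12 (r = 0.991), for Hmox1 Rnpepl1 (r = 0.990), for Tfrc Ttn (r = 0.983), for Aco1 Dusp16 (r = 0.984) and for Ftl1 Cwc15 (r = 0.981). The likenesses were lower for Fth1, with Igsf8 (r = 0.962), for Slc11a2, with Ift20 (r = 0.944) and Epor, the erythropoietin receptor (r = 0.941), and for Trf, with Coq9 (r = 0.932). Epor stood at 10.2 FPKM in the laser-captured library 1, which also had the highest Slc11a2. The laser-captured library 3, with an erythroid sum of 1820 FPKM, had Epor at 0 and the lowest Slc11a2 of its group, 1.97 FPKM. The part of erythroid RNA in the Slc11a2 values was not tested.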

How the data were processed

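The tools named in the submitters' processing notes are Cufflinks 2.0.2, Bowtie2 2.0.0, TopHat2 2.0.4 and CASAVA 1.8.2, and the build is mm9. Annotation release, strand setting and treatment of shared reads are not given in the sources used here. Per the file headers, the deposited table holds Cufflinks FPKM per library. A second table that the authors deposited, in the layout of Cuffdiff, holds a log2 fold change, p-values and q-values. Tables that repeat parts of it were not used.

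Members, lists and tests were chosen with earlier results of these data known. A gene was tested if 3 or more of the compared libraries had it at 1 FPKM or higher. The test ran on log2(FPKM + 1), which understates changes of low genes, with limma 3.58.1 (R 4.3.3, trend and robust estimation, statmod 1.5.0), only the 2 compared groups in each fit, two-sided, with Benjamini-Hochberg adjustment over all genes and a threshold of 0.05. The test was also run on simulated data, and the outcome of that run is not given here. Ratios were tested by exact permutation with scipy 1.17.1. Whole fragments were not recovered (56.3% to 64.6% of low values of single-exon genes lay within 0.2 of a whole multiple), so depths are estimates and no counting interval is given. Labels call the libraries biological replicates. Replicate numbers did not pair the libraries. Named pathway genes were those called with a mean of at least 5 FPKM in the higher group. Of the listed genes Abcb10 was not matched. Iron-responsive elements were searched in GENCODE M21 basic protein-coding transcripts, read by transcript and not by coordinate. Alternatives were other pseudocounts, filters, scalings, variance models, a replicate block, all groups in one fit, libraries left out in turn, labelled sex as a term between the sorted groups (added after seeing the data), and the laser-captured libraries 2 and 4 only. The gene of most like pattern to Ireb2 is not reported here.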

Additional observations from a re-analysis of the deposited data

Results flagged for a closer look

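Among the 10 iron genes in the laser-captured group, the one group with 4 libraries, 3 had a library far from the other 3 (the gap to the nearest, over the whole range, was above Dixon's 95% critical value). For normally distributed values, chance gives such a gap in about 1 of 20 groups. The gaps were taken on FPKM and not on a log scale, so the share due to chance is not known here. No share over all genes is given beside the 3. Slc40a1 stood at 24.7 FPKM in library 2, against 0.355 to 1.83 FPKM in the others. Slc11a2 stood at 86.1 FPKM in library 1, against 1.97 to 3.37 FPKM in the others. Aco1 stood at 30.8 FPKM in library 1, against 4.72 to 8.74 FPKM in the others.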

How the results depend on the processing

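The files give no counts, so depth limits low values by an amount that is not known, and 3 or 4 libraries a group limit the tests. Among single gene results, 447 kept direction and side of the threshold, 35 gained a call, 20 lost one and 28 turned direction. Most had no call to lose. The 20 were those of Slc11a1 (13 of 18 alternatives) and Hmox1 (7 of 18) over the sorted wild-type libraries, the only calls of the main fits. The cause was not tested.

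Over the sorted GFP libraries, 0 iron genes were called higher, against 2 under median ratio scaling, 3 under the microglial offset, 1 with laser-captured libraries 2 and 4 only, and 0 to 1 with a library left out. There 0 were called lower, against 1 with a pseudocount of 5, 2 with all groups in one fit, 2 with one variance per group, 1 without trend and robust estimation, 3 with libraries 2 and 4 only, and 0 to 3 with a library left out. The 6 pathway calls became 3 under median ratio scaling, 14 in one fit, 10 with one variance per group, 10 with libraries 2 and 4 only, and 0 to 10 with a library left out.

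Over the sorted wild-type libraries, 0 iron genes were called higher, against 3 under the microglial offset, 1 in one fit, 1 with one variance per group, and 0 to 1 with a library left out. The 2 called lower became 1 with a pseudocount of 0.1, 1 with no filter, 1 without trend and robust estimation, 0 under median ratio scaling, quantile normalization and the microglial offset, and 0 to 3 with a library left out. The 8 pathway calls became 5 with no filter, 3 under median ratio scaling, 3 under quantile normalization, 5 under the microglial offset, 15 in one fit, 13 with one variance per group, and 0 to 12 with a library left out. With the replicate block the 2 lower iron genes became 0 and the pathway calls 4.

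Same-numbered libraries did not deviate together (correlations between −0.0313 and 0.00491 for the laser-captured comparisons, and 0.107, −0.037 and 0.105 between the sorted groups), so the numbers were not taken as pairs. Between the sorted groups the counts of iron genes and pathway genes called by limma stayed at 0 under every alternative run.

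Directions turned as follows on the log2 scale. Under the microglial offset the changes over the sorted GFP libraries were 0.70 for Ftl1, 0.07 for Slc11a2, 1.46 for Aco1 and 0.72 for Ireb2, and over the sorted wild-type libraries 0.56 for Ftl1, 1.26 for Slc11a2, 1.46 for Aco1 and 1.04 for Ireb2. Aco1 over the sorted GFP libraries was 0.02 with a pseudocount of 5, 0.46 under median ratio scaling, 0.20 under quantile normalization, 0.26 with the replicate block, and −0.57 to 0.26 with a library left out, among them 0.00 without library 2, 0.13 without library 3 and 0.05 without the sorted GFP library 1. Aco1 over the sorted wild-type libraries was 0.37 under median ratio scaling, 0.11 under quantile normalization, 0.17 with the replicate block, and −0.65 to 0.17 with a library left out, among them 0.04 and 0.02. Slc11a2 over the sorted wild-type libraries was 0.00 with a pseudocount of 5, 0.14 under median ratio scaling, and −1.47 to 0.15 with a library left out, among them 0.03. Aco1 between the sorted groups was 0.01 under the microglial offset and −0.19 to 0.07 with a library left out.

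Of all calls over the sorted GFP libraries, 39.0% were higher, against 58.1% under median ratio scaling, 46.8% under quantile normalization and 93.7% under the microglial offset, 69.7% to 70.8% without any 1 sorted GFP library, and 18.1% with laser-captured libraries 2 and 4 only.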

Other observations

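Several genes of iron and heme handling, named after their values were seen, varied widely among laser-captured libraries. Cp, the ferroxidase ceruloplasmin, stood at 0.777, 4.23, 0.585 and 73.9 FPKM after laser capture (libraries 1 to 4), against 2.32 to 2.58 FPKM in the sorted GFP libraries. Bach1, a repressor of heme oxygenase transcription, stood at 89.0, 61.2, 5.92 and 7.46 FPKM, against 26.2 to 31.8 FPKM in the sorted GFP libraries. Blvrb, a biliverdin reductase downstream of heme oxygenase, stood at 4.08, 0.560, 47.7 and 23.9 FPKM, against 21.1 to 25.2 FPKM in the sorted GFP libraries. None of these 3 passed limma's test (adjusted p = 0.685, 0.801 and 0.406).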
